A study of Mus musculus with 18 samples.

Results

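Imprinted genes are genes for which the copy inherited from 1 parent is mainly or only expressed. The 39 imprinted genes described here were listed by name. All 39 had a row among the 22997 nuclear genes of the deposited tables. By textbook knowledge, 20 of them were grouped as maternally expressed and 17 as paternally expressed, while Gnas and Blcap were not grouped. For some genes this holds only in certain tissues, so the groups do not say which copy was expressed in these cells. The measurements were single-cell RNA sequencing of wild-type C57BL/6 mouse embryos during gastrulation. At embryonic day (E) 6.75, 6 libraries were made by CEL-Seq2 from cells picked by hand after the extraembryonic part of each embryo had been cut away and the embryos dissociated singly. At E7.5, 12 libraries were made by mCEL-Seq2, the small-volume automated version, from cells sorted by flow cytometry out of pooled embryos of 1 or 2 litters, trimmed so that extraembryonic mesoderm stayed in. Each library used 96 cell barcodes, which tag the transcripts of 1 cell. The stages thus also differed in how cells were collected and in the protocol, and these 3 differences cannot be told apart. Both parents of every embryo were of 1 strain by the labels, so the parental copies were not distinguished and all levels below are sums over both.

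Imprints are DNA methylation marks set in the germ line at control regions, kept through early development while most other methylation is lost, and read in cis by groups of neighbouring genes. Many imprinted genes act on growth. Igf2 encodes a fetal growth factor, Igf2r the receptor that clears it, Cdkn1c an inhibitor of the cell cycle, Grb10 an inhibitor of insulin and IGF receptors, and Phlda2 a protein that limits placental growth. H19, Meg3, Rian, Mirg, Kcnq1ot1 and Airn are noncoding RNAs of these neighbourhoods. Extraembryonic tissues are known for strong expression of many imprinted genes.

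Cells with at least 2000 nuclear transcripts were kept, which left 543 of 576 cells at E6.75 and 429 of 1152 at E7.5. E7.5 replicate 5 had 0 such cells and entered no comparison, so 11 E7.5 libraries were used. The kept cells of a library held 488326 to 5486857 transcripts in all. Mitochondrial transcripts made up 13.7% to 18.6% of transcripts in E6.75 libraries and 9.0% to 14.3% in E7.5 libraries. Levels are transcripts per 1000000 nuclear transcripts (CPM) of a library, or of a group of cells in it, and each library is 1 replicate. The labels do not say which embryos a library came from, so p-values treat libraries, not embryos, as replicates. The edgeR fits of levels pooled the spread between libraries over genes. Their p-values and standard errors (SE) therefore do not measure a gene's own spread alone. The libraries used a common barcode list: 56 pairs of libraries had all 96 barcodes in common, 32 pairs had 48 and 65 pairs had 0.

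Cells were also split into groups by marker transcripts, called gates. Visceral endoderm cells, the layer around the embryo that takes up nutrients, had Ttr, Apoa1 and Spink1 at 20 or more per 10000 transcripts. At E6.75 the lowest cells inside this gate had 22.1 and 23.1 per 10000, and the highest outside had 17.8 and 16.4, against a median of 0 over all kept cells. Among the other cells, Mesp1 cells (nascent mesoderm) had Mesp1 and no Foxa2, and Foxa2 cells had Foxa2 and no Mesp1. Sox2 cells (epiblast and ectoderm) had Sox2 and neither of these. Hand1 cells had Hand1 and none of the other 3 genes. At E6.75 there were 39 visceral endoderm, 29 Mesp1, 82 Foxa2 and 270 Sox2 cells, and at E7.5 there were 125 Mesp1, 48 Foxa2, 129 Sox2 and 58 Hand1 cells. Only 2 visceral endoderm cells at E7.5 and 3 Hand1 cells at E6.75 were kept, so neither group was compared. A transcript of a gate gene can be missed in a shallow cell, so Sox2 cells may include cells that contained unseen Mesp1 or Foxa2 RNA. Foxa2 marks endoderm and axial midline, but at E6.75 the 6 epiblast markers summed to 5602 CPM in Foxa2 cells, against 6148 in Sox2 cells. The 7 definitive endoderm and axial markers, Foxa2 included, summed to 335 CPM in E6.75 Foxa2 cells and 959 in E7.5 Foxa2 cells. The E6.75 Foxa2 cells are therefore not called endoderm here.

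The annotation (GENCODE M21 on GRCm38, since the build of the deposited tables is not given in the sources used here) placed the 39 genes in 16 neighbourhoods, counting genes that start within 1 Mb of each other as neighbours. The largest, on distal chromosome 7 from 142575529 to 143549106, holds H19, Igf2, Ascl2, Cd81, Tssc4, Kcnq1ot1, Cdkn1c, Slc22a18, Phlda2 and Nap1l4. Dlk1, Meg3, Rian and Mirg lie on chromosome 12 from 109452823 to 109749460. On chromosome 6, Sgce, Peg10, Ppp1r9a and Asb4 lie from 4674350 to 5433022. Zim1, Peg3 and Usp29 lie on chromosome 7 from 6671269 to 6967219. Nnat and Blcap, Mest and Copg2, Igf2r and Airn, and Zrsr1 and Commd1 overlap on opposite strands. Whether reads were counted by strand is not given in the sources used here, so transcripts of these pairs may not be fully separated.

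Phlda2, Peg3, Meg3 and Mirg differed between the stages both in level and in the share of cells with a transcript, and their upstream sequences are shown for that reason. Each is the 250 bases before the RefSeq start site on GRCm38.p6, written 5′ to 3′ on the gene's strand, with CG dinucleotides, where DNA methylation occurs, in capitals. The Phlda2 window lies at chr7:143502525-143502774 on the minus strand and holds 21 CG. By GENCODE, Phlda2 starts at 143503150, so this window lies inside the gene and is upstream of the RefSeq start only.
Phlda2: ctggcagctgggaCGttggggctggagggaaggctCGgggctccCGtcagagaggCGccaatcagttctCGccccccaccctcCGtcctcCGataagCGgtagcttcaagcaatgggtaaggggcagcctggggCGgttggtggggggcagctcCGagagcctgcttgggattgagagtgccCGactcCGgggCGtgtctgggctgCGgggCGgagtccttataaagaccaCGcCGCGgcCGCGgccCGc
The Peg3 window, at chr7:6730420-6730669 on the minus strand, holds 8 CG, and 163 of its bases also lie in the upstream window of Usp29, which is read in the opposite direction.
Peg3: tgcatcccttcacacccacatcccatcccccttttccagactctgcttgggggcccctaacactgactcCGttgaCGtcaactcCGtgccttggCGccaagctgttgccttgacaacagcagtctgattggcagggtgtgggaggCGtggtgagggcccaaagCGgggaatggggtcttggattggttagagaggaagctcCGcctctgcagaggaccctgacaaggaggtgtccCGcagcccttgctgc
The Meg3 window, at chr12:109540746-109540995 on the plus strand, holds 10 CG.
Meg3: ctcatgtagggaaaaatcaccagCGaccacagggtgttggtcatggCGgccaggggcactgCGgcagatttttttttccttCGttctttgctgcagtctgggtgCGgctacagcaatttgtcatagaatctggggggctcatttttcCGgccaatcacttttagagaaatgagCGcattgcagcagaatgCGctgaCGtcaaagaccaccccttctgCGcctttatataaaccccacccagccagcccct
The Mirg window, at chr12:109734731-109734980 on the plus strand, also holds 10 CG. By GENCODE, Mirg starts at 109729764, so this window lies inside the gene and is not upstream of that start. It holds the sequences of miR-668-5p, miR-668-3p and miR-485-3p, short RNAs (microRNAs, described below) that Mirg hosts.
Mirg: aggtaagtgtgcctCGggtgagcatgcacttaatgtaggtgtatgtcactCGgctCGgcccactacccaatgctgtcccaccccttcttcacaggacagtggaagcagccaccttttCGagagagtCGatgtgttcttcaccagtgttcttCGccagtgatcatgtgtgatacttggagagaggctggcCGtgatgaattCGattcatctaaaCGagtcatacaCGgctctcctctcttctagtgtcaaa
The letters TGCCGC, the core of the sequence bound by ZFP57, a protein that keeps imprints methylated, were searched on both strands. They were found in the Meg3 window and not in the windows of Phlda2, Peg3 and Mirg. Over windows of 300 bases, 250 before to 50 after the start, 12 of 49 windows of the imprinted genes held them (24.5%), against 11.6% of all 32851 windows, and 32 of the 39 genes had an entry, some with several windows that overlap almost fully. The searched letters include a CG, and the median window held 15 CG among the imprinted genes and 7 among all, so the shares are not matched for CG content.

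H19, Igf2 and Mest also carry microRNAs, short RNAs that pair with target messengers through their seed, here in capitals (bases 2 to 8). These mature RNAs are not read by an assay of polyadenylated RNA, and the RefSeq sequences are given to show what these 3 hosts, all higher in visceral endoderm and in E7.5 Hand1 cells, encode.
miR-675-5p (H19): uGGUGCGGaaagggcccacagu
miR-675-3p (H19): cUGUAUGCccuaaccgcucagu
miR-483-5p (Igf2): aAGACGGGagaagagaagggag
miR-483-3p (Igf2): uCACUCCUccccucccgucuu
miR-335-5p (Mest): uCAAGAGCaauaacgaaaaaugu
miR-335-3p (Mest): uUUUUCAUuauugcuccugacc
No 2 of these 6 shared a seed. Mirg holds 26 mature microRNAs with 25 different seeds.

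Across the stages, more imprinted genes were higher at E7.5 than lower, with the highest fold change in Phlda2, while the noncoding RNAs of the Meg3 neighbourhood and Snrpn were lower. In sums over all kept cells, 34 of the 39 genes had enough transcripts to test, and 23 differed between the stages (adjusted p under 0.05, edgeR's quasi-likelihood test with Benjamini-Hochberg adjustment over all 9998 genes tested). Of these, 18 were higher at E7.5 and 5 lower. Over all genes tested, 38.8% differed, 20% being higher and 18.8% lower. The median log2 fold change was 0.50 over the 34 imprinted genes and 0.03 over all genes. Among maternally expressed genes 8 of 18 tested were higher and 4 lower, and among paternally expressed genes 9 of 14 were higher and 1 lower. The 11 that did not pass had log2 fold changes from −0.46 to 0.67. Slc22a18, Plagl1, Usp29, Zim1 and Airn were too low to test.

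**Figure D1:**
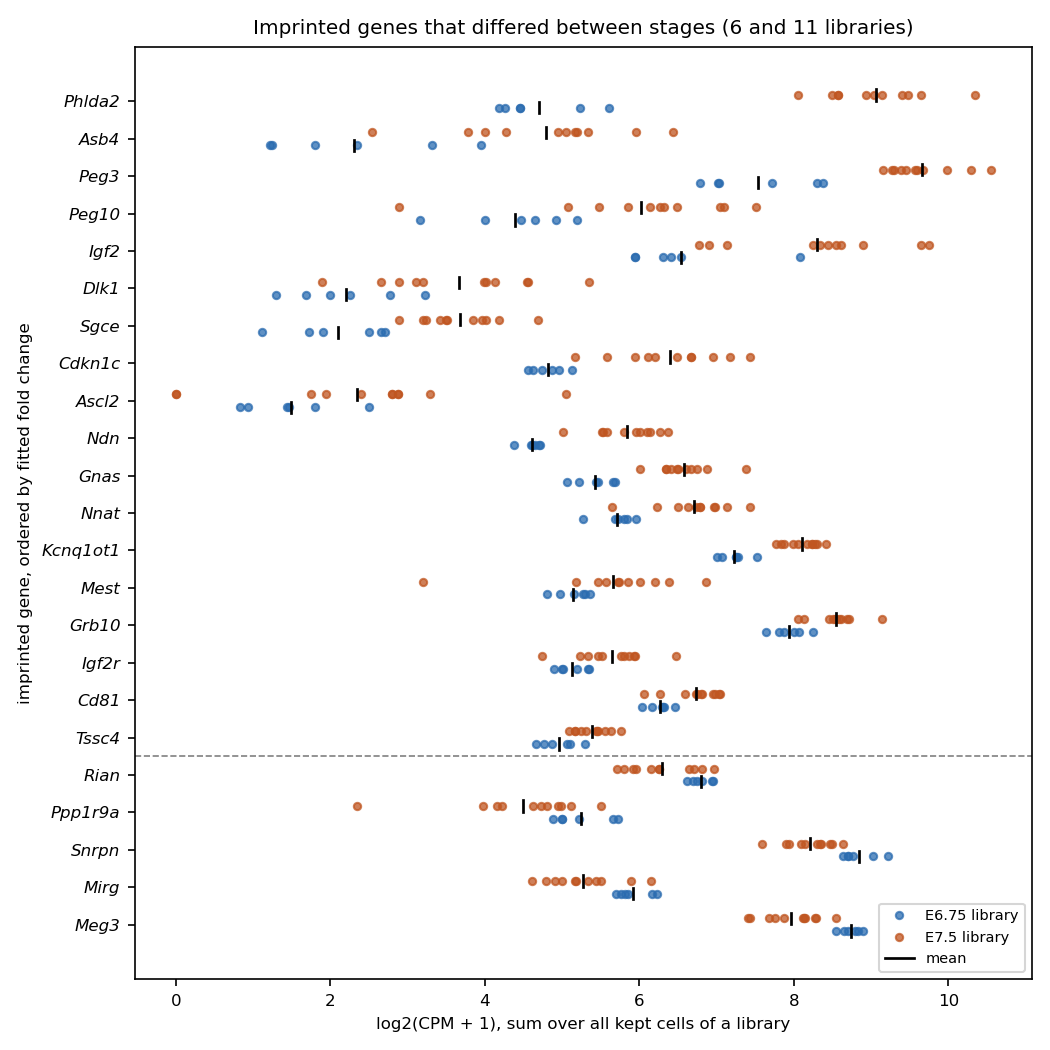
Levels of the 23 imprinted genes that differed between the stages, as log2(CPM + 1) over all kept cells of each library (points; 6 at E6.75, 11 at E7.5), with the mean of the log2 values as a bar. Genes above the dashed line were higher at E7.5 and those under it lower; the stages do not overlap for Phlda2, Peg3, Sgce, Cdkn1c, Ndn, Gnas and Kcnq1ot1.

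Phlda2 (chromosome 7, 143501545 to 143503150) changed most. Its levels at E6.75 were 17.2, 21.0, 20.9, 36.5, 47.8 and 18.2 CPM in replicates 1_10, 1_11, 2_12, 2_13, 2_14 and 2_9. At E7.5 the lowest library had 263.8 CPM, the median was 522.9 and the highest 1302, so every E7.5 library lay above every E6.75 library. The log2 fold change was 4.36 ± 0.34 (SE, 6 against 11 libraries, adjusted p = 4.83e-09, edgeR). Cdkn1c, its neighbour (143458339 to 143461050), was at 22.5 to 33.8 CPM at E6.75, with a median of 26.9, and at 34.8 to 171.8 CPM at E7.5, with a median of 88.4. The 2 ranges came close without overlapping, and the log2 fold change was 1.73 ± 0.24 (SE, adjusted p = 7.5e-06, edgeR).

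Peg3 (chromosome 7, 6703892 to 6730431), a zinc finger protein of the paternal copy, was at 130, 109, 129, 332, 314 and 208 CPM in the same order of E6.75 replicates. Replicates 2_13 and 2_14 were the highest of these and lay below the lowest E7.5 library. At E7.5 it ran from 566.9 CPM through a median of 755.2 to 1502, and the log2 fold change was 1.996 ± 0.247 (SE, adjusted p = 2.51e-06, edgeR). Ndn, which encodes the MAGE family protein necdin, was at 19.9 to 25.2 CPM (median 23.7) in E6.75 libraries and at 31.2 to 81.6 CPM (median 61.2) in E7.5 libraries. The Ndn stages did not overlap, with a log2 fold change of 1.29 ± 0.15 (SE, adjusted p = 8.52e-07, edgeR). Gnas, a G protein subunit, also rose without overlap, from 42.4 ± 7.1 CPM (SD, n = 6) to 97.5 ± 26.9 (SD, n = 11).

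Igf2 (chromosome 7, 142650766 to 142666816) was at 77.8, 83.7, 269, 92.0, 60.8 and 60.4 CPM in E6.75 replicates 1_10, 1_11, 2_12, 2_13, 2_14 and 2_9, and from 107.8 through 347.4 to 859.3 CPM at E7.5. Replicate 2_12 was the only E6.75 library inside the E7.5 range. The log2 fold change was 1.80 ± 0.41 (SE, adjusted p = 0.00163, edgeR). H19 (142575529 to 142578143), the noncoding RNA downstream of Igf2, was at 425, 318, 951, 443, 280 and 392 CPM in those E6.75 replicates and from 286.0 through 659.4 to 1554 CPM at E7.5. Here too replicate 2_12 stood above the other E6.75 libraries, the stages overlapped, and the log2 fold change of 0.67 did not pass the test (adjusted p = 0.127, edgeR). Without replicate 2_12 it was 1.002 (adjusted p = 0.0276), and without visceral endoderm cells in any library it was 1.28 (adjusted p = 0.0175). Igf2r (chromosome 17, 12682406 to 12769664) was 34.2 ± 4.7 CPM over the E6.75 libraries (SD, n = 6) and 51.3 ± 16.3 over those of E7.5 (SD, n = 11), a log2 fold change of 0.55 (adjusted p = 0.0136, edgeR) with overlapping ranges.

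The chromosome 6 neighbours Asb4, Peg10 and Sgce were all higher at E7.5, from low levels. Asb4, part of a ubiquitin ligase, ran from 1.3 through 3.3 to 14.4 CPM at E6.75 and from 4.8 through 32.1 to 85.6 CPM at E7.5, with 9 of 11 E7.5 libraries above all E6.75 libraries (log2 fold change 2.45 ± 0.47, SE, adjusted p = 0.000339, edgeR). For Peg10, a gene derived from a retrotransposon and needed in the placenta, the E6.75 range was 7.9 to 35.6 CPM (median 22.6) and the E7.5 range 6.4 to 181.7 CPM (median 75.8). One E7.5 library lay below all E6.75 libraries and 9 lay above, with a log2 fold change of 1.87 ± 0.39 (SE, adjusted p = 0.00062, edgeR). Sgce, which encodes a membrane sarcoglycan, went from 1.2 to 5.5 CPM (median 3.7) to 6.4 to 24.7 CPM (median 10.3) without overlap, a log2 fold change of 1.75 ± 0.30 (SE, adjusted p = 9.48e-05, edgeR). The remaining gene of that neighbourhood, Ppp1r9a, was lower at E7.5 (log2 fold change −0.69, adjusted p = 0.0236, edgeR). Its difference missed the threshold without replicate 1_10 (adjusted p = 0.0584) or 1_11 (adjusted p = 0.0638).

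Dlk1, a membrane ligand related to those of Notch, was low at both stages. It ran from 1.5 through 3.4 to 8.3 CPM at E6.75 and from 2.7 through 14.9 to 39.9 CPM at E7.5, with 6 of 11 E7.5 libraries above all E6.75 libraries (log2 fold change 1.78 ± 0.42, SE, adjusted p = 0.00185, edgeR). Ascl2, a transcription factor of the trophoblast, was at 0.78 to 4.6 CPM at E6.75 and at 0 to 32.2 CPM at E7.5, with 2 E7.5 libraries at 0 (log2 fold change 1.62 ± 0.57, SE, adjusted p = 0.0289, edgeR). Mest, an enzyme of the alpha/beta hydrolase fold, rose from 34.7 ± 5.1 CPM (SD, n = 6) to 57.0 ± 27.3 (SD, n = 11), with 9 E7.5 libraries above and 1 below all E6.75 libraries. Its log2 fold change was 0.73 (adjusted p = 0.0198, edgeR). Nnat, Grb10, Cd81 and Tssc4 had log2 fold changes from 0.38 to 1.03. The call of Tssc4 was lost without the filter on low counts (adjusted p = 0.094, edgeR) and with only the E6.75 libraries whose numbers start with 2 (adjusted p = 0.0513).

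The noncoding RNAs moved in both directions. Kcnq1ot1 (chromosome 7, 143203458 to 143296549), which silences its neighbours on the paternal copy, was higher at E7.5 in all 11 libraries, at 276.7 ± 40.7 CPM (SD, n = 11) against 149.8 ± 19.6 (SD, n = 6), a log2 fold change of 0.83 (adjusted p = 3.81e-06, edgeR). Meg3 (chromosome 12, 109541001 to 109571726) was lower, at 256.7 ± 63.6 CPM (SD, n = 11) against 426.3 ± 37.2 (SD, n = 6), with 10 of 11 E7.5 libraries below all E6.75 libraries and a log2 fold change of −0.78 (adjusted p = 7.24e-05, edgeR). Mirg and Rian, transcribed downstream of Meg3, had log2 fold changes of −0.70 and −0.50, and Snrpn, a splicing factor of the paternal copy, −0.69. With every cell thinned to 2000 transcripts Rian was at −0.33 and did not pass (adjusted p = 0.373, edgeR). The levels of Kcnq1ot1 and Meg3 moved with a cell's depth. At E6.75, Kcnq1ot1 was at 292 CPM in cells of 2000 to 10000 transcripts, 215 in cells of 10000 to 40000 and 130 in deeper cells, and Meg3 at 632, 544 and 395 CPM. At E7.5 the order was the other way, with 226, 271 and 300 CPM for Kcnq1ot1 and 148, 267 and 284 CPM for Meg3. Depth differed within and between libraries, and its part in the stage differences was not tested.

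The makeup of the libraries also changed with stage. Sox2 cells made up 49.7% of kept cells at E6.75 and 30.1% at E7.5, Mesp1 cells 5.34% and 29.1%, Hand1 cells 0.552% and 13.5%, and visceral endoderm cells 7.18% and 0.466%. In sums over all cells, more cells of a type and more RNA per cell cannot be told apart, so the stages were also compared within Sox2 cells. There, 11 of 28 tested genes were higher at E7.5 and 0 lower, against 23.4% of all 8043 genes called, 11.9% higher and 11.4% lower. Phlda2 was 19.7 ± 4.0 CPM (SD, n = 6) in E6.75 Sox2 cells and 116.2 ± 68.2 (SD, n = 10) in E7.5 Sox2 cells, a log2 fold change of 2.61 ± 0.28 (SE, adjusted p = 5.18e-07, edgeR). Peg3 was 112.2 ± 17.6 (SD, n = 6) and 431.4 ± 224.7 (SD, n = 10), a log2 fold change of 1.91 ± 0.26 (SE, adjusted p = 1.01e-05, edgeR). Peg10, Gnas, Ndn, Magel2, Kcnq1ot1, Nnat, Copg2, Grb10 and Cd81 were the others, with log2 fold changes from 0.40 to 1.39. The call of Cd81 was lost when any of 5 E6.75 libraries or any of 6 E7.5 libraries was left out, that of Peg10 when any of 7 libraries was, and that of Nnat without E7.5 replicate 3. Without the filter on low counts Cd81 (adjusted p = 0.312) and Copg2 (adjusted p = 0.121, edgeR) did not pass, Cd81 also missed with only the E6.75 libraries numbered from 2 (adjusted p = 0.0654), and Peg10 missed under DESeq2 (adjusted p = 0.208). Meg3, lower over all cells, had a log2 fold change of −0.05 in Sox2 cells (adjusted p = 0.769, edgeR), and Cdkn1c 0.57 (adjusted p = 0.06). Igf2 and H19 had log2 fold changes of 1.06 (adjusted p = 0.18) and 0.52 (adjusted p = 0.54) in Sox2 cells, values that changed when a few cells were set aside, as described with the visceral endoderm.

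The share of cells with at least 1 transcript was compared after thinning each cell to 2000 transcripts. Phlda2 was found in 5.09% ± 3.21 of cells at E6.75 (SD, n = 6) and in 45.9% ± 15.9 at E7.5 (SD, n = 11), and Peg3 in 28.3% ± 11.7 and 66.2% ± 6.1 (exact two-sided permutation test over libraries, p = 8.08e-05 for each, the smallest that 12376 regroupings can give, adjusted p = 0.0117). Meg3 went the other way, from 49.1% ± 7.7 to 30.4% ± 7.9 (exact permutation test, adjusted p = 0.0245), as did Mirg, from 11.4% ± 2.2 to 5.13% ± 3.10 (exact permutation test, adjusted p = 0.0363). These were the 4 of 34 imprinted genes that passed, against 2.63% of all 9998 genes. Igf2 was found in 11.9% and 26.3% of cells (exact permutation test, adjusted p = 0.117) and H19 in 26.0% and 42.1% (adjusted p = 0.219), neither of which passed. Without thinning, Phlda2, Peg3, Meg3, Ndn, Sgce and Asb4 passed, against 5.73% of all genes. With cells thinned to 5000 transcripts, 7 genes passed, against 4.23% of all genes, and Mirg was not among them.

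In E6.75 visceral endoderm, H19, Igf2, Peg10 and Peg3 stood far above Sox2 cells of the same libraries, and Snrpn, Ndn and Nnat far below. The comparison sets an extraembryonic layer against Sox2 cells, not against the whole embryo proper. A few of these Sox2 cells had extraembryonic ectoderm markers, as described below. The comparison used the 6 E6.75 libraries, with 3 to 16 visceral endoderm cells and 26 to 60 Sox2 cells in each and the library as a block. Of 28 imprinted genes tested, 15 differed, 11 higher and 4 lower in visceral endoderm, against 37.4% of all 7977 genes, 18.5% higher and 18.9% lower. Among maternally expressed genes 6 of 15 were higher and 0 lower, and among paternally expressed genes 5 of 11 were higher and 4 lower. Those that did not pass had log2 fold changes from −0.87 to 0.72, the upper end being Cdkn1c (adjusted p = 0.094, edgeR). The label of the gate held up on 8 visceral endoderm markers that it did not use, Afp, Amn, Cubn, Apoa4, Apob, Rbp4, Dab2 and Cited1, all of which were higher, with log2 fold changes from 6.08 to 8.47. Their summed level was 4366 CPM over the visceral endoderm cells (3067 to 7379 per library) and 42.8 over the Sox2 cells (22.1 to 68.5).

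**Figure D2:**
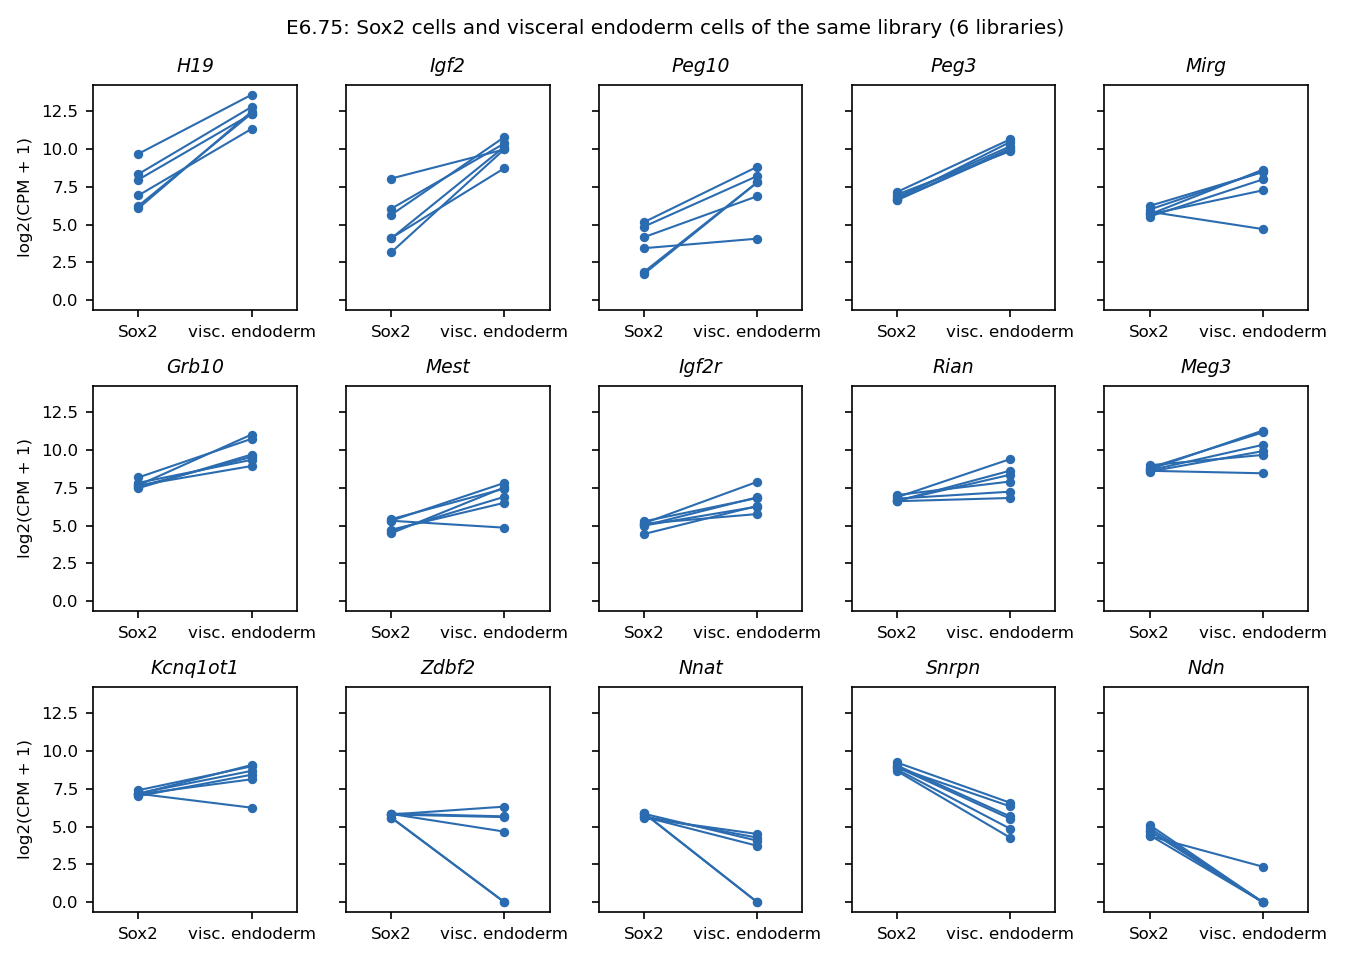
Levels of the 15 imprinted genes that differed between E6.75 Sox2 cells and visceral endoderm cells, as log2(CPM + 1); each line joins the 2 groups of cells of 1 of 6 libraries. H19, Igf2, Peg10, Peg3, Grb10, Igf2r and Rian rose in 6 of 6 libraries, and Snrpn, Ndn and Nnat fell in 6 of 6.

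H19 was at 6997, 5083, 12234, 5180, 5659 and 2563 CPM in visceral endoderm cells of replicates 1_10, 1_11, 2_12, 2_13, 2_14 and 2_9. In Sox2 cells of the same replicates it was at 323, 250, 819, 74.3, 66.4 and 121 CPM, so the groups did not overlap. The log2 fold change was 4.83 ± 0.18 (SE, 6 libraries, adjusted p = 7.83e-77, edgeR), from a fit that pooled the spread strongly over genes. Single visceral endoderm cells ranged from 255 to 26665 CPM around a median of 4398. Igf2 averaged 1105 ± 439 CPM in visceral endoderm (SD, n = 6; 422.8 to 1761) and 69.5 ± 97.2 in Sox2 cells (SD, n = 6; 8.0 to 262.6), a log2 fold change of 4.72 ± 0.20 (SE, adjusted p = 1.77e-65, edgeR) without overlap. Peg3 averaged 1177 ± 262 CPM (SD, n = 6) against 112.2 ± 17.6 (SD, n = 6), with every visceral endoderm value at 918 or above and every Sox2 value at 140.7 or below (log2 fold change 3.31 ± 0.16, SE, edgeR). For Peg10 the difference was 3.94 ± 0.27 on the log2 scale (SE, edgeR), higher in 6 of 6 libraries, yet its visceral endoderm values, from 15.7 through 219.6 to 449.4 CPM, overlapped those of Sox2 cells (2.3 through 13.4 to 34.7 CPM).

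Grb10 and Igf2r, which restrain growth signals, and the noncoding RNAs Mirg, Rian, Meg3 and Kcnq1ot1 were higher as well. Grb10 averaged 1079 ± 644 CPM in visceral endoderm (SD, n = 6) and 214.0 ± 40.2 in Sox2 cells (SD, n = 6), and Igf2r 111.5 ± 65.4 and 31.5 ± 5.9, neither with overlap. All 3 noncoding RNAs of the chromosome 12 neighbourhood were higher, Mirg by 2.15, Rian by 1.48 and Meg3 by 1.48 on the log2 scale, Rian in 6 of 6 libraries and the other two in 5 of 6. Mest and Kcnq1ot1 were higher by 2.09 and 1.29, each in 5 of 6 libraries. Phlda2, by contrast with E7.5 mesoderm below, was 19.1 ± 28.3 CPM in visceral endoderm (SD, n = 6) and 19.7 ± 4.0 in Sox2 cells (log2 fold change −0.87, adjusted p = 0.192, edgeR).

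Snrpn and Ndn, paternally expressed and best known from neurons, were lower, as were Nnat and Zdbf2, which lie on other chromosomes. Ube3a, in the neighbourhood of Snrpn, did not pass, and Magel2, in that of Ndn, was not tested. Snrpn was at 18.3 through 47.4 to 94.3 CPM in visceral endoderm and 407.2 through 482.0 to 601.2 CPM in Sox2 cells, without overlap (log2 fold change −3.17 ± 0.22, SE, adjusted p = 2.51e-34, edgeR). Ndn had 1 transcript in the 39 visceral endoderm cells, in replicate 2_13, and 331 in Sox2 cells. Its pooled level in Sox2 cells was 25.1 times that in visceral endoderm, with an exact 95% interval of 4.47 to 994.3 for counting error only. Nnat, a small membrane protein, averaged 11.3 ± 9.3 CPM against 52.8 ± 5.2 (SD, n = 6 each; log2 fold change −1.69, adjusted p = 0.000108, edgeR). Zdbf2, at −0.85 (adjusted p = 0.0346), was lower in 5 of 6 libraries and missed the threshold without the block (adjusted p = 0.115), under DESeq2 (adjusted p = 0.0715) and without replicate 1_11, 2_13 or 2_14 in turn (adjusted p from 0.0653 to 0.311).

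Markers of other cell types were also measured in these cells. All 5 parietal endoderm markers were found in visceral endoderm, summing to 1360 CPM (924 to 2091 per library) against 200.8 (175.7 to 225.9) in Sox2 cells. The 6 epiblast markers summed to 2642 CPM (1554 to 2974) in visceral endoderm against 6148 (5197 to 7152). Of 9 extraembryonic ectoderm and trophoblast markers 7 were found, summing to 352.5 CPM (267.3 to 420.1) against 114.4 (21.2 to 373.4), with Elf5 and Hand1 at 0 in visceral endoderm. The part of other cell types in these differences was not tested.

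Much of the H19 and Igf2 RNA of E6.75 Sox2 cells lay in 10 cells. These cells had Elf5, Wnt7b and Plet1, markers of the extraembryonic ectoderm, at 3 or more per 10000 transcripts with at least 2 of the 3 genes found, a rule set after the data were seen. They were 10 of 270 Sox2 cells and held 2.41% of their transcripts, but 72.0% of their H19 and 81.1% of their Igf2 transcripts. Pooled H19 was 8406 CPM in the 10 cells, each at 4132 CPM or more, and 80.7 CPM in the other 260. For Igf2 the values were 2414 and 13.9 CPM. Over all gates there were 13 such cells at E6.75, of which 7 were in replicate 2_12, the library with the highest H19 and Igf2, and 3 at E7.5. With these cells left out of both stages, Igf2 in Sox2 cells was higher at E7.5 by 2.69 on the log2 scale (adjusted p = 3.43e-06, edgeR) and H19 by 1.33 (adjusted p = 0.003). Sox2 cells with high levels that did not meet the rule stayed in. Among them were E7.5 cells with 3535, 4670 and 6986 CPM of H19 and 1190, 2262 and 2193 CPM of Igf2. At E6.75 they included cells with 2184 and 1729 CPM of H19 and 243 and 72.0 CPM of Igf2. Their part in the remaining difference was not tested. Without replicate 2_12 the Igf2 difference was 2.18 (adjusted p = 0.0021). H19 over all kept cells was also higher at E7.5, by 1.26, without the cells with extraembryonic ectoderm markers (adjusted p = 0.00279, edgeR). The visceral endoderm comparison kept 15 calls of the same 15 genes without them, but 3 fold changes grew by over 1.5 times. Against the remaining Sox2 cells the log2 fold change was 6.07 for H19, 6.21 for Igf2 and 4.88 for Peg10, in place of 4.83, 4.72 and 3.94.

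**Figure D3:**
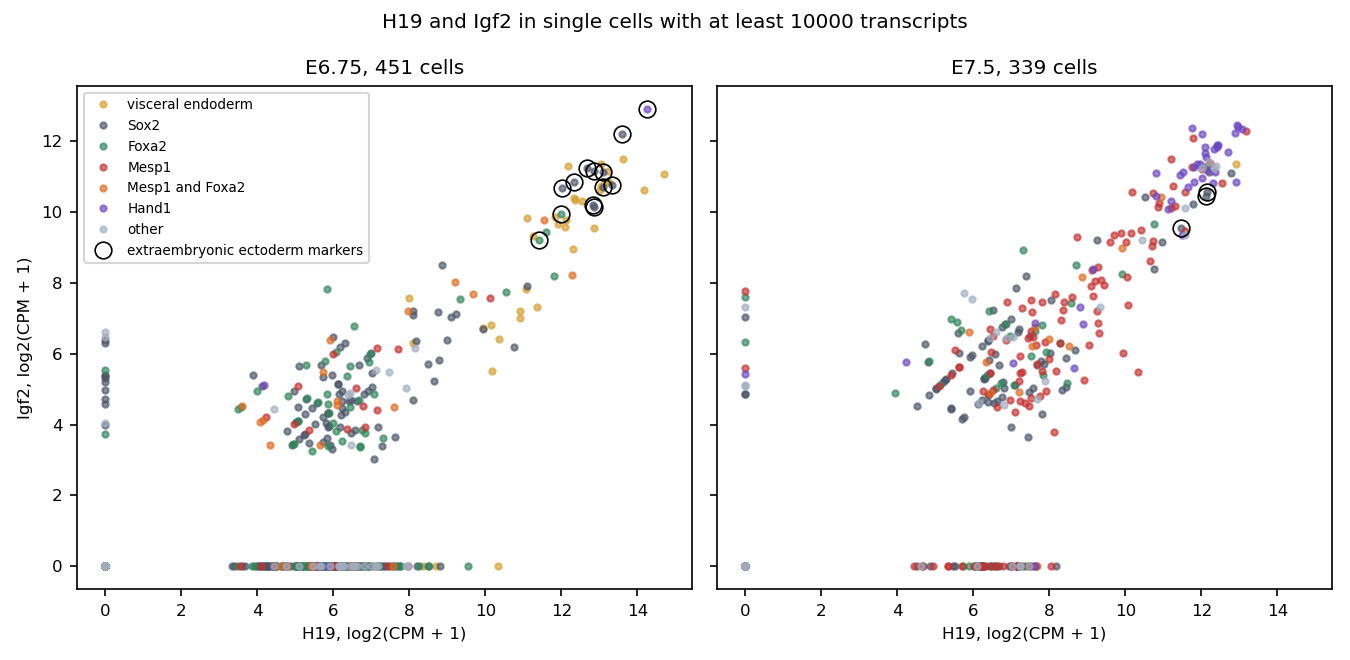
H19 against Igf2 in single cells with at least 10000 transcripts, as log2(CPM + 1), at E6.75 (451 cells) and E7.5 (339 cells), coloured by gate, with cells that had extraembryonic ectoderm markers ringed. At E6.75 the 13 ringed cells have 2745 CPM of H19 or more and visceral endoderm cells range from 255 to 26665 CPM. Unringed cells of other gates also lie inside that range.

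Among E6.75 cells outside the visceral endoderm, Peg3 was higher in Mesp1 cells than in Sox2 and Foxa2 cells. Mesp1 against Sox2 cells could be compared in 3 libraries, 2_9, 2_13 and 2_14, with 29 and 99 cells. Of 29 genes tested, Peg3 and Phlda2 were higher and 0 lower, against 1.18% of all 8401 genes called, 0.869% higher and 0.309% lower. The count depended on the settings, with 10 genes called when a gate needed at least 2 transcripts and 8 without the filter on low counts. Peg3 was at 703, 782 and 191.8 CPM in Mesp1 cells of replicates 2_13, 2_14 and 2_9 and at 112, 141 and 125 CPM in their Sox2 cells, higher in 3 of 3 (log2 fold change 2.14 ± 0.27, SE, adjusted p = 0.00178, edgeR). Phlda2 was at 76.2, 234.7 and 14.03 CPM against 19.1, 25.4 and 17.6, higher in 2 of 3 (log2 fold change 2.37 ± 0.38, SE, adjusted p = 0.00938, edgeR). Without replicate 2_14 the Phlda2 difference was 1.41 (adjusted p = 0.474). DESeq2 called neither gene, with an adjusted p of 0.123 for Peg3. The other 27 had log2 fold changes from −1.10 to 1.91.

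Between Foxa2 and Sox2 cells at E6.75, 0 of 30 genes passed in 6 libraries, against 0.402% of all 8959 genes. At an unadjusted p under 0.05 there were 3, against 653 of all 8959, DESeq2 called 0, and the log2 fold changes ran from −0.36 to 0.63. Peg3 was the upper end (adjusted p = 0.0631, edgeR), at 168 ± 97.6 CPM in Foxa2 cells (SD, n = 6) and 112.2 ± 17.6 in Sox2 cells. Between Mesp1 and Foxa2 cells, Peg3 was the 1 of 29 genes that passed, against 0.43% of all 7677 genes, 0.352% higher and 0.0782% lower. It was at 703, 782 and 191.8 CPM in Mesp1 cells and 254, 315 and 118 CPM in Foxa2 cells of replicates 2_13, 2_14 and 2_9 (log2 fold change 1.27 ± 0.15, SE, adjusted p = 0.00058, edgeR). Without the library as a block the adjusted p was 0.261.

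At E7.5, Mesp1 cells had far more Phlda2 and more Cdkn1c, Peg3, Igf2, Mest, Peg10 and H19 than Sox2 cells, and less Meg3, Mirg, Rian and Snrpn. In 10 libraries with 115 Mesp1 and 129 Sox2 cells, 12 of 24 genes tested differed, 8 higher and 4 lower, against 9.68% of all 5382 genes, 4.22% higher and 5.46% lower. Maternally expressed genes gave 4 higher and 3 lower of 13, and paternally expressed genes 4 higher and 1 lower of 10. The comparisons of Mesp1, Foxa2 and Hand1 cells with Sox2 cells share their Sox2 cells, so their results are not independent of each other.

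**Figure D4:**
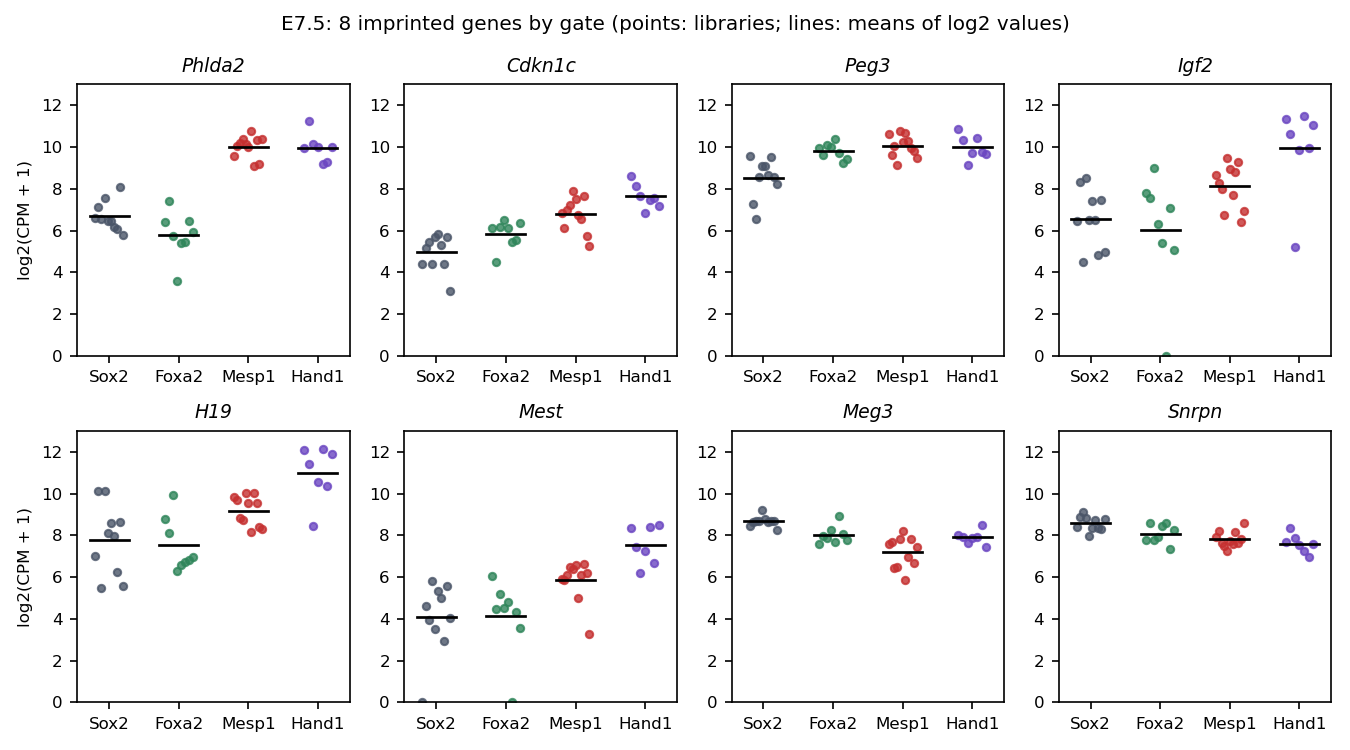
Levels of 8 imprinted genes in E7.5 Sox2, Foxa2, Mesp1 and Hand1 cells as log2(CPM + 1); points are libraries and bars the means of the log2 values. Phlda2 in Mesp1 and Hand1 cells lies above all Sox2 and Foxa2 values, and the mean of Meg3 is highest in Sox2 cells.

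Phlda2 in E7.5 Mesp1 cells ran from 551.1 through 1095 to 1745 CPM and in Sox2 cells from 54.2 through 90.5 to 273.6 CPM. The groups did not overlap, and the log2 fold change was 3.25 ± 0.16 (SE, 10 libraries, adjusted p = 5.88e-14, edgeR). Cdkn1c averaged 133.5 ± 59.5 CPM (SD, n = 10; 52.9 to 238.1) against 34.4 ± 16.4 (SD, n = 10; 7.7 to 57.1) and was higher in 10 of 10 libraries, with ranges that just overlapped (log2 fold change 1.87 ± 0.16, SE, adjusted p = 1.38e-09, edgeR). Igf2 ran from 85.5 through 360.2 to 719.9 CPM against 21.5 through 90.8 to 364.7 CPM, higher in 8 of 10 (log2 fold change 1.53 ± 0.26, SE, adjusted p = 0.000169, edgeR). Peg3 averaged 1173 ± 387 CPM against 431.4 ± 224.7 (SD, n = 10 each), higher in 10 of 10 with overlapping ranges. Mest averaged 71.9 ± 19.9 against 24.1 ± 18.0, higher in 10 of 10. For these 2 genes the log2 fold changes were 1.48 and 1.47. H19, at 681.0 ± 284.1 against 383.7 ± 408.1 CPM, was higher in 8 of 10 (log2 fold change 1.06, adjusted p = 0.0106, edgeR), and without the block its adjusted p was 0.286. The block also decided the call of Grb10 (0.31, adjusted p = 0.0139 with it and 0.153 without), and without replicate 1 its adjusted p was 0.054.

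The noncoding RNAs of the Meg3 neighbourhood were lower together in Mesp1 cells. Meg3 ran from 56.3 through 157.2 to 291.1 CPM against 302.2 through 408.4 to 585.3 CPM in Sox2 cells, without overlap (log2 fold change −1.32 ± 0.14, SE, adjusted p = 1.34e-07, edgeR). Rian was lower in 10 of 10 libraries and Mirg in 9 of 10, by −1.26 and −1.32 on the log2 scale. Snrpn averaged 218.5 ± 45.5 CPM against 390.9 ± 91.95 (SD, n = 10 each), lower in 10 of 10 (log2 fold change −0.80, adjusted p = 2.31e-06, edgeR). Igf2r, at 0.54, and Kcnq1ot1, at −0.25, did not pass (adjusted p of 0.0629 and 0.326, edgeR). Of the markers of other cell types, extraembryonic and lateral mesoderm genes summed to 394.9 CPM in Mesp1 cells (45.0 to 508.7 per library) against 127.7 (15.5 to 251.4) in Sox2 cells, all 6 being found. Blood and endothelium genes, 6 of 6 found, summed to 161.1 CPM (24.4 to 378.8) against 24.9. Visceral endoderm markers summed to 99.4 CPM (32.9 to 229.2) against 40.7, with Afp, Apoa4 and Apob at 0 in Mesp1 cells. Their part in these differences was not tested.

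E7.5 Foxa2 cells differed from Sox2 cells in fewer imprinted genes. In 8 libraries with 44 and 121 cells, 4 of 19 genes tested differed, against 2.57% of all 4013 genes, 1.54% higher and 1.02% lower. Nnat averaged 195.1 ± 58.8 CPM (SD, n = 8; 128.8 to 276.0) against 98.1 ± 46.03 (SD, n = 8; 61.1 to 189.4), higher in 8 of 8 with overlap (log2 fold change 1.09 ± 0.16, SE, adjusted p = 6.29e-05, edgeR). Without the block the adjusted p was 0.0554. Peg3 averaged 926.1 ± 234.7 against 508.4 ± 175.4 CPM, higher in 8 of 8 (log2 fold change 0.98, adjusted p = 6.9e-06, edgeR), and Grb10 463.5 ± 107.0 against 329.6 ± 47.1, higher in 7 of 8. Without replicate 7 the adjusted p of Grb10 was 0.0566. Meg3 was lower in 7 of 8, at 269.8 ± 95.4 against 414.0 ± 81.8 CPM (log2 fold change −0.65, adjusted p = 0.00448, edgeR). Phlda2 was 68.4 ± 48.2 CPM in these Foxa2 cells, and its log2 fold change of −0.75 did not pass (adjusted p = 0.07, edgeR).

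Set directly against Foxa2 cells in the 8 libraries that had both, E7.5 Mesp1 cells had 7 of 22 genes higher and 0 lower, against 5.22% of all 4448 genes called, 1.91% higher and 3.3% lower. Phlda2 ran from 551.1 through 1080 to 1745 CPM in Mesp1 cells and from 11.2 through 55.7 to 171.7 CPM in Foxa2 cells, without overlap (log2 fold change 3.75 ± 0.18, SE, adjusted p = 1.9e-13, edgeR). H19 averaged 691.4 ± 304.7 CPM against 274.6 ± 305.4 (SD, n = 8 each) and was higher in 8 of 8 libraries. Igf2, Cdkn1c, Mest and Peg10 were each higher in 7 of 8, by 1.21 to 1.51 on the log2 scale. Peg3 differed least, by 0.35 (adjusted p = 0.0392, edgeR), a call lost without replicate 1, 2, 6 or 7. Without the block 3 genes were called, and without replicate 7 there were 4.

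Hand1 cells of E7.5, which came from 7 libraries with 54 Hand1 and 106 Sox2 cells, had the highest mean Igf2, Mest and Dlk1 of the 4 E7.5 gates. Of 21 genes tested 10 differed from Sox2 cells, 8 higher and 2 lower, against 7.76% of all 3698 genes, 3.68% higher and 4.08% lower. Igf2 was at 36.1 CPM in the lowest library, replicate 11, at a median of 1574 and at 2885 in the highest, against 21.5 through 91.2 to 364.7 CPM in Sox2 cells. It was higher in 7 of 7 (log2 fold change 3.33 ± 0.32, SE, adjusted p = 1.49e-07, edgeR). Mest averaged 217.9 ± 120.6 CPM against 24.7 ± 18.5 (SD, n = 7 each) and Cdkn1c 214.0 ± 96.2 against 38.0 ± 14.1, both without overlap, with log2 fold changes of 3.04 and 2.25. Phlda2, at 575.1 through 1014 to 2470 CPM against 71.2 through 93.2 to 190.9 CPM, was as clearly separated (log2 fold change 3.24 ± 0.17, SE, adjusted p = 8.64e-12, edgeR). H19 averaged 2676 ± 1657 against 474.1 ± 453.2 CPM and Peg10 286.0 ± 153.1 against 39.9 ± 30.5, each higher in 7 of 7 with overlap. Peg3 and Ndn were higher by 1.38 and 0.97, though Ndn missed the threshold without replicate 1, 4 or 10 in turn (adjusted p from 0.0518 to 0.147). Snrpn and Meg3 were lower in 7 of 7, by −0.99 and −0.81. Dlk1 was not tested here, at 54.9 ± 45.7 CPM in Hand1 cells (SD, n = 7) and 5.4 ± 5.0 in Sox2 cells (SD, n = 10).

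Hand1 is expressed in extraembryonic and lateral mesoderm and in trophoblast, so both marker lists were read in this gate. Hand1 defined the gate and is in both lists, so the gate rule itself raised both sums. All 6 extraembryonic and lateral mesoderm markers, Hand1 included, were found in the Hand1 cells, summing to 1233 CPM (415.5 to 1708 per library). Of the 9 extraembryonic ectoderm and trophoblast markers, again with Hand1, 8 were found, summing to 726.7 CPM (451.6 to 1005) against 214.2 (31.0 to 705.6) in Sox2 cells, and Elf5 was at 0. Blood and endothelium markers summed to 470.2 CPM (18.1 to 916.1) against 24.9. Median depth was 18724 transcripts in Hand1 cells and 30400 in Sox2 cells. The part of these cell types and of depth in the differences was not tested.

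**Figure D5:**
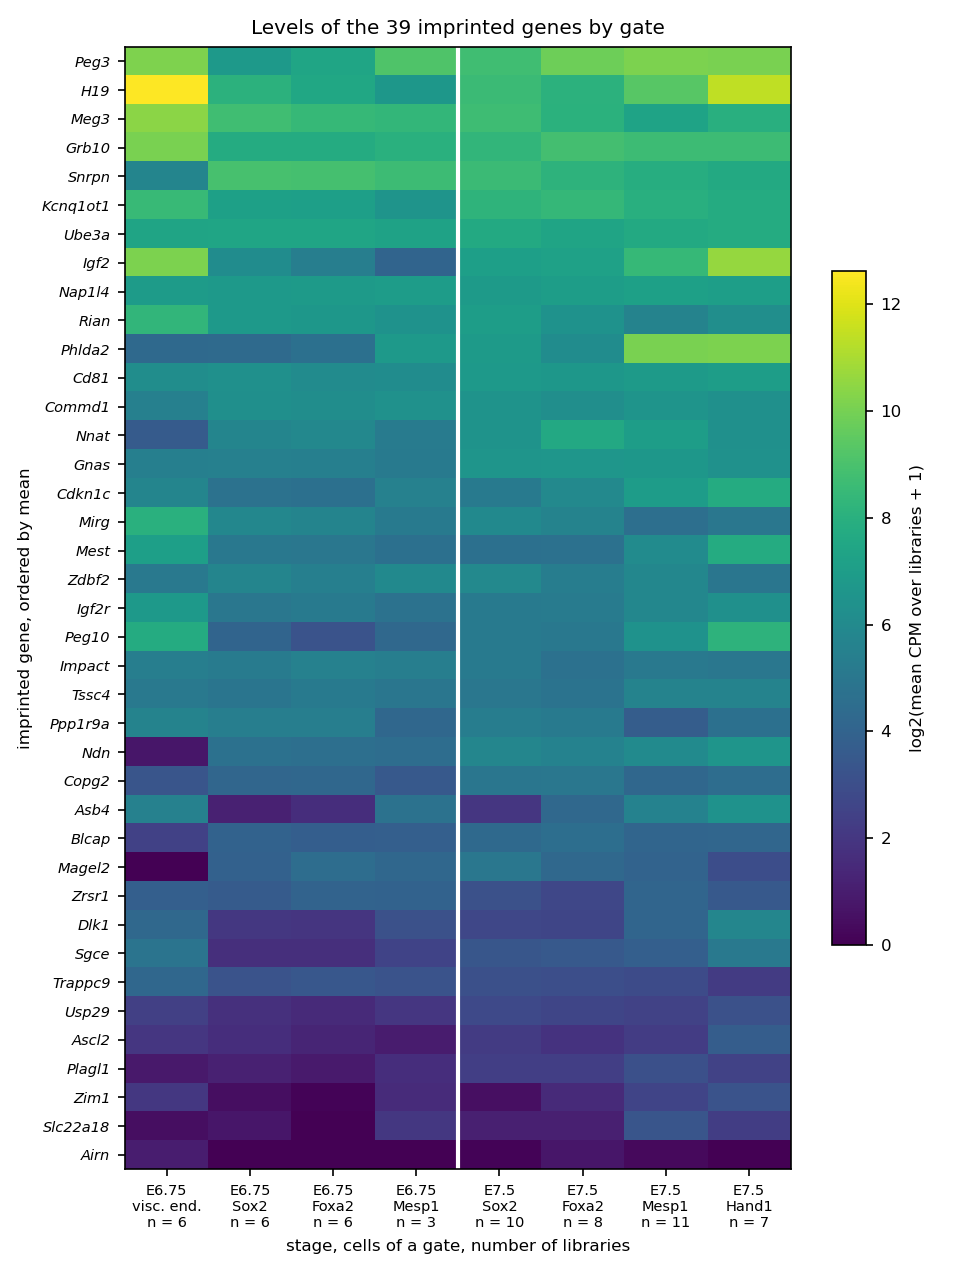
Mean level of each of the 39 imprinted genes in 8 groups of cells, as log2(mean CPM over libraries + 1); n is the number of libraries. Rows are ordered by mean for display, and levels of different genes were not compared; visceral endoderm and Hand1 cells share high H19, Igf2, Peg10 and Mest, while Phlda2 is high in E7.5 Mesp1 and Hand1 cells.

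Whether the differences between gates changed with stage was tested directly. For Mesp1 against Sox2 cells, the interaction of gate and stage passed for 0 of 29 imprinted genes (0 under DESeq2), against 0.652% of all 7664 genes. At an unadjusted p under 0.05 there were 8 imprinted genes and 533 of all genes. Mest had the highest estimate, 1.63 (adjusted p = 0.113, edgeR), and Phlda2 0.86 (adjusted p = 0.71). The larger number of genes called between these gates at E7.5 is therefore not shown to be a change of the differences themselves. For Foxa2 against Sox2 cells, 1 of 28 passed, against 0.615% of all 6989 genes. Nnat, higher in Foxa2 cells at E7.5, had an interaction of 0.90 ± 0.22 (SE, adjusted p = 0.0429, edgeR), which missed the threshold when any of 9 of the 14 libraries was left out or the cells with extraembryonic ectoderm markers were (adjusted p = 0.0513).

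Neighbouring genes were also read together. In the stage comparison over all kept cells, 7 of 9 tested genes of distal chromosome 7 were higher and 0 lower, against 20% and 18.8% of all genes. Within Sox2 cells 3 of 8 were higher at E7.5 and 0 lower, against 11.9% and 11.4% of all genes. In E7.5 Mesp1 cells 4 of 8 were higher than in Sox2 cells, against 4.22% of all genes. On chromosome 12 the stage comparison over all kept cells gave Dlk1 higher and Meg3, Rian and Mirg lower. Within Sox2 cells 3 of these were tested, with 0 higher and 0 lower. As a description, levels were also correlated across single cells with at least 10000 transcripts on the log2(CPM + 1) scale, 451 cells at E6.75 and 339 at E7.5, which share libraries and barcodes. H19 and Igf2 had r = 0.91 at E6.75 and 0.92 at E7.5. Without visceral endoderm cells and those with extraembryonic ectoderm markers, r was 0.66 at E6.75 over 404 cells, and values over these 404 cells are given in brackets. Meg3 and Rian had r = 0.65 and 0.63 (0.57 over the 404 cells), and Meg3 and Mirg 0.51 and 0.47 (0.37). Dlk1 and Meg3, from opposite parental copies of 1 neighbourhood, had r = 0.11 at both stages (−0.07 over the 404 cells). Dlk1 was found in only 78 cells at each stage, which limits r. Igf2 and Mest, on different chromosomes, had r = 0.09 at E6.75 (−0.05 over the 404 cells) and 0.67 at E7.5, and Phlda2 and Cdkn1c 0.23 (0.17) and 0.59. Peg3 and Usp29, whose upstream windows overlap as shown above, had r = 0.02 and 0.03. Here too r was limited, with Usp29 found in 47 and 59 cells, at 2.5 ± 1.5 CPM (SD, n = 6) and 6.0 ± 2.1 CPM (SD, n = 11).

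Other genes of these pathways were read from fixed lists. Of 20 factors that maintain imprints or set DNA methylation, 16 were tested between the stages, with 0 higher and 11 lower at E7.5 and a median log2 fold change of −0.38, against 18.8% of all genes lower and a median of 0.03. Dnmt3a (−1.59), Dnmt3l (−1.47) and Dnmt3b (−1.10), the de novo methyltransferases and their cofactor, and Tet1 (−1.27), which oxidises methylcytosine, were lowest. In visceral endoderm 5 of 14 were lower and 0 higher than in Sox2 cells, against 18.9% and 18.5% of all genes. Among the 5 were Dnmt3b (−2.16), Dnmt3a (−2.02), Tet1 (−0.75) and Ctcf (−0.65), an insulator protein bound at the H19 control region. Dnmt3b, Dnmt3a and Tet1 were lower in E7.5 Mesp1 cells (−1.71, −0.70 and −0.75, 3 of 14) and in Hand1 cells (−2.28, −1.10 and −0.95, 3 of 13) than in Sox2 cells. Over all genes tested, 5.46% were lower in Mesp1 cells and 4.08% in Hand1 cells. Over Sox2 cells alone, 5 of 14 were lower at E7.5 and 0 higher, against 11.4% and 11.9% of all genes. Dnmt3a was at −1.25 and Dnmt3b at −0.38.

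Of 12 genes of the IGF pathway, 10 were tested between the stages. They gave 2 higher and 2 lower, against 20% and 18.8% of all genes, with a median log2 fold change of 0.14. Igfbp4, a secreted protein that binds IGFs, was higher at E7.5 (1.88), and Igfbp2, another, was lower (−0.81). Igfbp4 was also higher than in Sox2 cells in visceral endoderm (2.41), E7.5 Mesp1 cells (2.36) and Hand1 cells (2.07), the gates in which Igf2 was higher. Igf1r, the receptor through which IGF2 signals, was lower in visceral endoderm (−1.82) and in E7.5 Mesp1 cells (−0.39). Of 26 further imprinted genes, 8 could be tested in visceral endoderm. There 6 were higher and 0 lower, against 18.5% and 18.9% of all genes. Ddc (4.06), Gab1 (3.63), Sfmbt2 (2.78) and Inpp5f (2.04) led. Between the stages 9 were tested, with Smoc1 (0.91) and Casd1 (0.72) higher at E7.5 and Ddc (−1.31) and Jade1 (−0.65) lower.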

How the data were processed

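Each library was deposited as a table of expected counts, genes by 192 cell barcodes, of which 96 were in use. The authors had corrected the number of unique molecular identifiers (UMIs) for collisions among 4096 UMI sequences, to within 4.09e-12 of that formula, with no depth normalisation. The submitters' processing notes name bcl2fastq 2.17.1.14 and BWA 0.6.2-r126; the genome build, annotation and use of strand are not given in the sources used here. Of 23093 features, 74 ERCC spike-ins and 22 mitochondrial genes were left out. Expected counts were rounded per cell and summed per library, or per library and gate with at least 3 cells in both gates. They were tested with edgeR 4.0.16 (R 4.3.3; quasi-likelihood test, TMM, filterByExpr), with the library as a block between gates, and p-values were adjusted by Benjamini-Hochberg over all genes tested. The fits of some comparisons were run on simulated counts, with the same spread for all genes and known changes in well-covered genes only. That run does not check the calls of genes with few transcripts or of the other comparisons. Standard errors are the size of the log2 fold change divided by the square root of F. Shares were tested with Python 3.11.15 and scipy 1.17.1 by exact permutation over libraries, adjusted over all genes rather than over the imprinted genes. DESeq2 1.42.0 was an alternative, with other filters, normalisations, gates and libraries left out. Hand-picked and sorted cells were given no doublet call.

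The imprinted genes, gates and lists were chosen with earlier results of these data known. Values by library are given for up to 10 genes called between stages and up to 5 per comparison of gates, by size of the log2 fold change, and 10 genes are always described (H19, Igf2, Igf2r, Cdkn1c, Phlda2, Peg3, Mest, Dlk1, Meg3 and Kcnq1ot1). Of other lists, up to 4 called genes are named. Leaving out cells with extraembryonic ectoderm markers was chosen after seeing the data. Sums of few cells are imprecise: the smallest visceral endoderm sum held 40054 transcripts and the smallest E7.5 Hand1 sum 45749.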

Additional observations from a re-analysis of the deposited data

Results flagged for a closer look

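Dixon's test at the 95% level was applied in 65 groups of 4 to 10 libraries. It reads the gap between the highest or lowest library and its nearest neighbour, and 11 stood apart. Chance gives about 1 in 20 only for independent groups of normally distributed values. These groups share libraries and cells, so the count is not read as an excess over chance. At E6.75, replicate 2_12 stood apart for H19 (950.9 CPM) and Igf2 (268.7 CPM) over all kept cells and within Sox2 cells (818.5 and 262.6 CPM); it held 7 of the 13 E6.75 cells with extraembryonic ectoderm markers. Ndn in visceral endoderm was found in replicate 2_13 only (4.079 CPM, 1 transcript). At E7.5, Meg3 stood apart in Foxa2 cells of replicate 6 (488.3 CPM) and Sox2 cells of replicate 2 (585.3 CPM), and Phlda2 in Foxa2 cells of replicate 12 (171.7 CPM) and Hand1 cells of replicate 10 (2470 CPM). H19 (966.9 CPM) and Igf2 (507.1 CPM) were high together in Foxa2 cells of replicate 2.

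The difference of Nnat between Foxa2 and Sox2 cells differed between the stages by 0.8979 on the log2 scale in the test of that difference.

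Barcodes that entered no comparison also held transcripts of imprinted genes. The 1728 unused barcodes had 51.67 such transcripts per 10000 and the 756 used barcodes below 2000 transcripts had 54.48, against 40.9 in the kept cells.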

How the results depend on the processing

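Of the single-gene results, 704 of 734 kept their direction and their side of the threshold under another setting. When 1 library was left out 943 of 990 did, and none of the results counted changed direction. The results counted are calls of the main fits and a few genes that did not pass. A gene not tested, or given no adjusted p, under a setting is left out of these counts for that setting. The values below are imprinted genes called, with calls over all genes in brackets. Thinning every cell to 2000 transcripts left 12 called between the stages, 11 of them shared, among 16 tested (619), and 3 of 6 in Sox2 cells (211). Without the filter on low counts there were 8 for E6.75 Mesp1 against Sox2 cells (316), 2 for E6.75 Foxa2 against Sox2 (136), 5 for E6.75 Mesp1 against Foxa2 (138), 7 for E7.5 Foxa2 against Sox2 (358), 11 for E7.5 Mesp1 against Foxa2 (712), 16 for Hand1 against Sox2 (689), and 3 and 2 for the interactions of Mesp1 (99) and Foxa2 (119) with stage. DESeq2 called 0 for E6.75 Mesp1 against Sox2 (64). A gate of at least 2 transcripts gave 10 for that comparison (834) and 4 for E6.75 Mesp1 against Foxa2 (164). Without the replicate block, E6.75 Mesp1 against Foxa2 had 0 (16) and E7.5 Mesp1 against Foxa2 had 3 (179). Leaving out cells with extraembryonic ectoderm markers gave 2 for E6.75 Foxa2 against Sox2 (58), 2 for E6.75 Mesp1 against Foxa2 (51) and 0 for the Foxa2 interaction (52). A minimum of 5000 transcripts per cell gave 2 for that interaction (69), and thinning to 5000 gave 7 for the share of cells (423). Leaving out 1 library in turn gave 1 to 6 for E6.75 Mesp1 against Sox2 (1 without replicate 2_14, 6 without 2_9), 0 to 2 for E6.75 Foxa2 against Sox2, 2 to 3 for E6.75 Mesp1 against Foxa2, 4 to 8 for E7.5 Mesp1 against Foxa2 (4 without replicate 7) and 0 to 2 for the Foxa2 interaction. Calls over all genes also moved by over 1.5 times under DESeq2 for E6.75 Foxa2 against Sox2 (36 to 18), E6.75 Mesp1 against Foxa2 (33 to 18), E7.5 Foxa2 against Sox2 (103 to 63) and the Mesp1 interaction (50 to 22), without the replicate block for E6.75 Foxa2 (36 to 11) and E7.5 Foxa2 against Sox2 (103 to 48), with a gate of at least 2 transcripts for the same pair (78 and 49), and without the filter for E7.5 Mesp1 against Sox2 (521 to 981). The causes were not tested. No paired analysis of the stages was possible because they share no replicate number.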
